A study of Homo sapiens with 18 samples.

Results

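The fibroblast growth factor (FGF) receptors and ligands described here are 10 genes, taken by symbol from the 40266 gene symbols of the expression table: the signalling receptors FGFR1, FGFR2, FGFR3 and FGFR4, the receptor-like FGFRL1, the ligands FGF1, FGF2, FGF5 and FGF19, and the carrier protein FGFBP1. Their RNA was measured by RNA-seq in 18 libraries from 2 pancreatic ductal adenocarcinoma (PDAC) lines, Panc1, which was derived from a primary tumour, and Panc89, which was derived from a lymph node metastasis. Each line was grown as parental cells, as Holoclone cells (enriched for cancer stem cell properties by the study's account) and as Paraclone cells (without these properties), with 3 replicates of each of the 6 groups. No agent, allele or transgene separated the groups. Holoclone and Paraclone cells were each expanded from a single cell, so that within a line each of these groups is 1 clone and a difference between them is a difference between 2 clones. The replicates are RNA from 3 passages of the same culture, and p-values therefore measure the spread between passages. Values are TPM, a share of all transcripts that is scaled by transcript length, so that levels of different genes can be set side by side.

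FGFs are secreted proteins that bind heparan sulfate on the cell surface and, together with it, bring receptor tyrosine kinases into pairs, which then signal through the adaptor FRS2 to the RAS and MAP kinase pathway. FGFR1, FGFR2 and FGFR3 exist as splice forms that are made in epithelial or in mesenchymal cells and bind different ligands. FGFRL1 binds FGFs but lacks the kinase domain, and FGFBP1 is a secreted protein that releases FGFs from the matrix. In the pancreas FGFs from the surrounding mesenchyme drive growth of the epithelium during development, and in PDAC both tumour and stromal cells make ligands.

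The deposited levels of each library summed to between 985339 and 988066 TPM, and between 12932 and 14199 symbols reached 1 TPM. Libraries of the same group correlated at 0.954 to 0.992 across genes (Pearson, log2(TPM + 1)). VIM, an intermediate filament of mesenchymal cells, was at 2021 to 5044 TPM in Panc1 and at most 0.456 TPM in Panc89, and the epithelial cadherin CDH1 was at 0.671 to 3.51 TPM in Panc1 and 73.3 to 106.6 TPM in Panc89. The other markers on these 2 lists did not all go with them. Of 6 mesenchymal markers, FN1 reached a mean of 1 TPM only in the Panc89 groups, and ZEB2 only in Panc89 Paraclone cells. By the test given below, 1 of these 6 was higher and 3 lower in parental Panc89 than in parental Panc1. Of 9 epithelial and ductal markers, 6 were higher and 2 lower, against 27.5% and 38.5% of all tested genes. Of the markers of other cell types, COL1A1 was the only 1 of 7 fibroblast markers and CD68 the only 1 of 6 leukocyte markers to reach a mean of 1 TPM in any group, and none of 6 acinar and endocrine markers did. Of 5 endothelial markers, PECAM1 and CDH5 reached it in parental Panc89 and Panc89 Paraclone cells, with summed levels of 55.3 to 69.1 TPM and 3.01 to 9.01 TPM, whereas VWF, KDR and TEK stayed under 1 TPM in all 6 groups and KDR was listed at 0 in all 3 Panc89 Paraclone libraries. The part of these markers in the results was not tested. Fewer cells of a type and less RNA per cell cannot be told apart in such bulk samples. Within groups, 4 libraries had a low summed level of 6 target genes of the stress-response factor ATF4: Panc1 parental replicate 2, Panc1 Paraclone replicate 1, Panc89 Holoclone replicate 1 and Panc89 Paraclone replicate 2. Panc89 Holoclone replicate 1 (1314 TPM) was low only beside replicates 2 and 3 of its group (2154 and 2501 TPM), the highest of all 18 libraries. It was above every parental and Paraclone library of Panc89. Calls that were lost or gained without 1 of these 4 libraries are given beside the genes concerned, as differences alone where no p is given.

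Differences were tested on the log2(TPM + 1) scale with limma-trend over all 18 libraries, were adjusted over all tested genes (Benjamini-Hochberg) and are called at an adjusted p under 0.05. Each call was also refitted under alternatives that changed the pseudocount, the filter, the scaling, the error model, the pairing of replicates or the libraries, 1 at a time. Of the 10 genes, 9 were tested, because FGF1 did not reach 1 TPM in any library. FGF19 and FGFBP1 passed this filter through the Panc89 groups, and FGF5 through parental Panc1 and 1 Panc1 Paraclone library. Between the parental lines 8 of the 9 tested genes passed the test, 4 being higher (FGFR3, FGFRL1, FGF19 and FGFBP1) and 4 lower in Panc89 (FGFR1, FGFR4, FGF2 and FGF5), where 66% of the 16093 tested genes were called (27.5% higher and 38.5% lower). Between the Holoclone lines 7 passed against 65.8% of all tested genes, and between the Paraclone lines 6 against 60.7%. As FGF5, FGF19 and FGFBP1 entered through the line in which they were high, nothing is read from these counts between the lines, and the differences of FGF19 and FGFBP1 between the lines and of FGF5 against those groups are given as descriptions without a p. The counts for Panc1 Holoclone against Paraclone and against parental cells hold FGF5 as well. Between Holoclone and Paraclone cells 4 passed in Panc1, where 37.3% of all tested genes were called (27.4% higher and 9.97% lower), and 6 in Panc89, where 35.7% were called (22.4% higher and 13.3% lower). The TPM as deposited shift the median log2 difference of all tested genes by more than 0.1 in some comparisons: it was -0.18 between the parental lines and -0.11 between the Holoclone lines (Panc89 against Panc1), and in Panc1 it was 0.19 for Holoclone against Paraclone and -0.17 for Paraclone against parental cells. Scaling by the upper quartile or by median ratios brought all 4 medians to between -0.04 and 0.04, and the genes called higher in Panc1 Holoclone against Paraclone cells went from 73.3% to 51.3% and 47.7% of those called. No called difference of the 9 genes changed direction with the scaling.

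**Figure D1:**
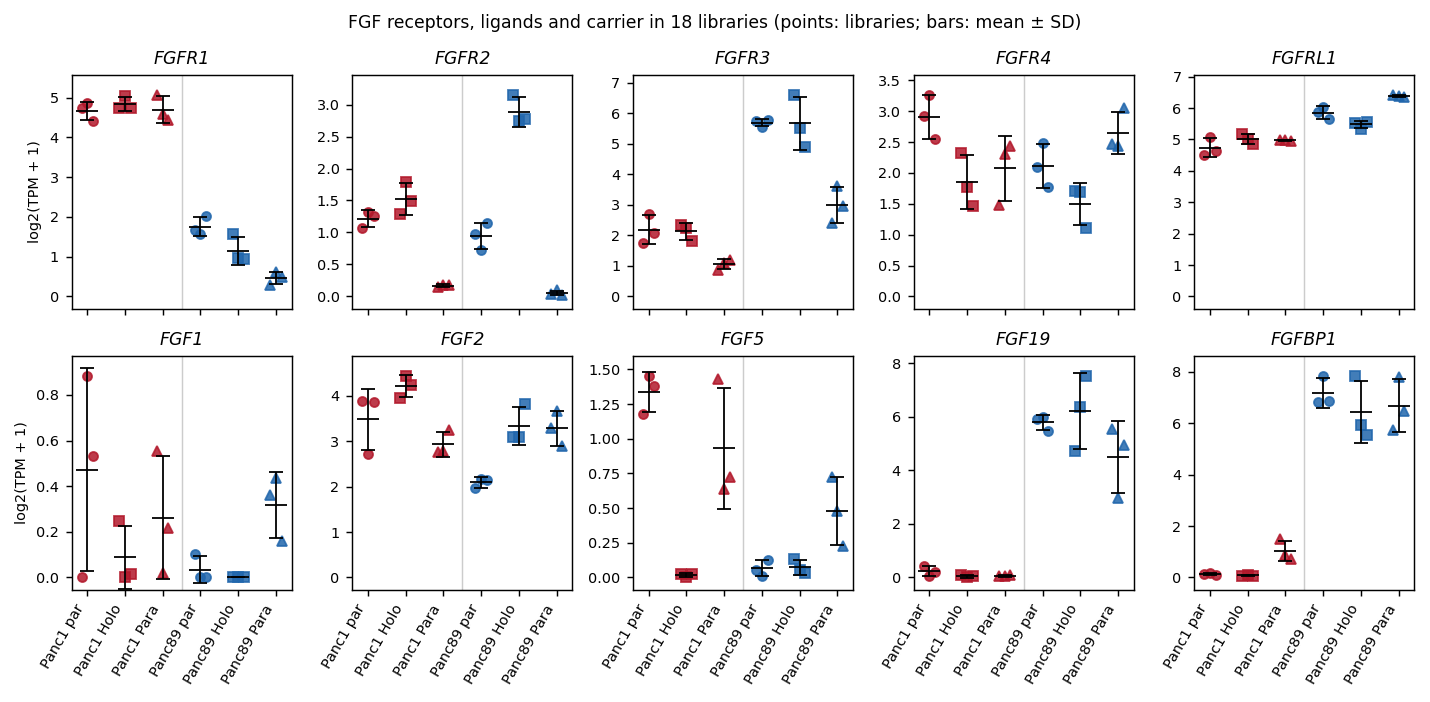
Level of each of the 10 genes, in log2(TPM + 1), in every library. Points are libraries (red, Panc1; blue, Panc89; circles, parental; squares, Holoclone; triangles, Paraclone), and black bars give the mean ± SD of 3 replicates. FGFR1 was high in all 9 Panc1 libraries, FGF19 and FGFBP1 in Panc89, and FGFR3 in parental and Holoclone Panc89 cells. FGFR2 was lowest in the Paraclone cells of both lines.

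FGFR1, the receptor of mesenchymal and many tumour cells (chromosome 8, 38400215 to 38468834, minus strand; this and all other positions in GRCh38), was at 25.6, 27.9 and 20.3 TPM in parental Panc1, at 25.6, 32 and 25.8 TPM in Panc1 Holoclone cells and at 32.7, 22.9 and 20.8 TPM in Panc1 Paraclone cells. In Panc89 it was at 2.17, 1.98 and 3.05 TPM in parental cells, at 1.95, 0.940 and 0.918 TPM in Holoclone cells and at 0.224, 0.520 and 0.400 TPM in Paraclone cells. The 3 Panc1 groups overlapped throughout, while the 3 Panc89 groups lay in separate ranges, all below Panc1. The parental lines differed 10.3-fold in mean level, with a log2 difference of -2.91 ± 0.207 (SE) for Panc89 against Panc1 (adjusted p = 5.17e-09). Within Panc89, Holoclone cells were above Paraclone cells by 0.69 ± 0.207 (log2, adjusted p = 0.0161; 0.49, adjusted p = 0.0746, without Holoclone replicate 1 and 0.61, adjusted p = 0.0639, without Paraclone replicate 1), and below the parental cells by 0.60 (adjusted p = 0.0452). Paraclone cells were below the parental cells by 1.29 (adjusted p = 3.55e-04). These comparisons share libraries, and both clones lay below the culture from which they came. The adjusted p of the Holoclone against the parental cells exceeded 0.05 in 9 of the alternatives, 5 of the 6 left-out libraries among them (all but Holoclone replicate 1), with a log2 difference of -0.47 to -0.80 as single libraries were left out. Within Panc1 no FGFR1 difference was called, the largest being 0.17 with a 95% interval of -0.27 to 0.61.

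FGFR3 (chromosome 4, 1793293 to 1808872, plus strand), a receptor of epithelial tissues and cartilage, was highest in parental and Holoclone Panc89 cells. It was at 52.7, 46.3 and 54.5 TPM in parental Panc89, at 97.0, 44.6 and 28.9 TPM in Panc89 Holoclone cells and at 4.35, 11.3 and 6.82 TPM in Panc89 Paraclone cells. In Panc1 it was at 2.39, 5.49 and 3.25 TPM in parental cells, at 4.04, 3.73 and 2.52 TPM in Holoclone cells and at 0.840, 1.13 and 1.31 TPM in Paraclone cells. All Panc89 Holoclone and parental libraries were above every Panc1 library, and within each line the Paraclone cells formed the lowest group. Parental Panc89 exceeded parental Panc1 13.8-fold (log2 difference 3.52 ± 0.367, adjusted p = 4.85e-07). Panc89 Holoclone cells exceeded Panc89 Paraclone cells 7.59-fold (log2 difference 2.67 ± 0.367, adjusted p = 4.11e-05), and without Holoclone replicate 1 or Paraclone replicate 2 the log2 difference was 2.20 or 2.98. The corresponding Panc1 difference was 3.14-fold (log2 1.07 ± 0.367, adjusted p = 0.031). It was lost in 9 alternatives, both alternative scalings and 5 of 6 left-out libraries among them, at adjusted p between 0.0519 and 0.104. As single libraries were left out the log2 difference ranged from 0.97 to 1.23, and the call held only without Holoclone replicate 3. Panc1 Paraclone cells were below parental Panc1 by 1.12 (adjusted p = 0.0318), which was lost in 7 alternatives, including without any 1 library but parental replicate 1, at log2 differences from -0.87 to -1.20 in these. Panc89 Paraclone cells were also below their parental cells by 2.70 (log2, adjusted p = 9.37e-05).

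FGFR2 (chromosome 10, 121478332 to 121598458, minus strand), whose epithelial splice form answers to mesenchymal FGFs, differed between the clones of both lines. It was at 1.09, 1.49 and 1.40 TPM in parental Panc1 and at 0.967, 0.661 and 1.21 TPM in parental Panc89, ranges that overlap (log2 difference -0.26, 95% interval -0.60 to 0.07, adjusted p = 0.149). Panc1 Holoclone cells were at 1.45, 2.44 and 1.81 TPM and Panc89 Holoclone cells at 7.90, 5.67 and 5.81 TPM. Paraclone cells were at 0.107, 0.132 and 0.134 TPM in Panc1 and at 0.0308, 0.0684 and 0.0168 TPM in Panc89. In both lines every Paraclone library was thus below every parental and every Holoclone library. On the log2(TPM + 1) scale, which understates changes of genes under 1 TPM, Holoclone cells were above Paraclone cells by 1.35 ± 0.156 in Panc1 (adjusted p = 7.11e-06) and by 2.83 ± 0.156 in Panc89 (adjusted p = 2.47e-09). Against their parental cells, Paraclone cells were lower by 1.04 in Panc1 (adjusted p = 1.46e-04) and by 0.90 in Panc89 (adjusted p = 7.27e-04). Holoclone cells were above their parental cells by 1.94 in Panc89 (adjusted p = 3.11e-07), and the difference in Panc1 was 0.31 with a 95% interval of -0.02 to 0.64. All these FGFR2 calls held in each alternative that was run.

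FGFR4 (chromosome 5, 177086905 to 177098144, plus strand), is the receptor that FGF19 uses in liver. It was at 6.55, 8.62 and 4.86 TPM in parental Panc1, at 4.02, 2.42 and 1.77 TPM in Panc1 Holoclone and at 1.78, 3.95 and 4.42 TPM in Panc1 Paraclone cells. Panc89 held 3.29, 4.56 and 2.41 TPM in parental, 2.25, 2.24 and 1.15 TPM in Holoclone and 4.50, 4.42 and 7.24 TPM in Paraclone cells. Each group overlapped its neighbour in the order of means. In Panc89, Paraclone cells were 2.86-fold above Holoclone cells (log2 difference of Holoclone against Paraclone -1.15 ± 0.303, adjusted p = 0.00772), a call that held in each alternative run. The calls between the parental lines (-0.80, adjusted p = 0.030) and of both Panc1 clones against parental Panc1 (-1.05, adjusted p = 0.0347, and -0.84, adjusted p = 0.0498) were lost in 8, 7 and 11 alternatives. Without Panc1 parental replicate 2 these 3 differences were -0.62, -0.88 and -0.66, and without Panc1 Paraclone replicate 1 the last was -0.54 (adjusted p = 0.21).

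FGFRL1 (chromosome 4, 1009936 to 1026898, plus strand), the receptor-like protein without a kinase, had a highest library 1.03 to 1.51 times the lowest within each group. In Panc1 it was at 21.7, 32.7 and 24.1 TPM in parental, 35.1, 31.3 and 28.1 TPM in Holoclone and 30.6, 30.8 and 30.0 TPM in Paraclone cells. In Panc89 it was at 57.3, 65.0 and 48.8 TPM in parental, 44.9, 39.4 and 46.4 TPM in Holoclone and 84.8, 82.9 and 80.1 TPM in Paraclone cells. Every Panc89 library was above every Panc1 library, and the 3 Panc89 groups did not overlap. Panc89 exceeded Panc1 2.18-fold in parental cells (log2 1.11 ± 0.140, adjusted p = 4.29e-06), 1.38-fold in Holoclone cells (0.46, adjusted p = 0.00947) and 2.71-fold in Paraclone cells (1.41, adjusted p = 3.17e-07). Within Panc89 Holoclone cells were below Paraclone cells by 0.91 (adjusted p = 1.22e-04), the direction opposite to that of FGFR1, FGFR2 and FGFR3. Panc89 Paraclone cells were above their parental cells by 0.54 (adjusted p = 0.0133; 0.43, adjusted p = 0.0804, without parental replicate 3). Within Panc1 Holoclone and Paraclone cells were at 31.5 ± 3.51 and 30.5 ± 0.457 TPM (SD, n = 3; log2 difference 0.04, interval -0.26 to 0.34). Without parental Panc1 replicate 2 both were called above parental Panc1, by 0.44 (adjusted p = 0.0459) and 0.40 (adjusted p = 0.0314).

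Set against each other per length, the 4 signalling receptors made up different mixtures in the lines. FGFR1 gave 68.0% ± 3.82 (SD, n = 3) of their summed TPM in parental Panc1, 77.6% ± 4.13 in its Holoclone and 83.9% ± 7.45 in its Paraclone cells, but 4.12% ± 0.755, 2.01% ± 0.418 and 2.80% ± 0.366 in the Panc89 groups. FGFR3 gave 88.3% ± 1.49 in parental Panc89 and 83.7% ± 5.16 in Panc89 Holoclone cells. In Panc89 Paraclone cells FGFR3 gave 54.7% ± 12.6 and FGFR4 42.2% ± 13.1, against 6.01% ± 2.33 in parental and 3.13% ± 1.06 in Holoclone cells. FGFR2 reached 11.2% ± 4.30 in Panc89 Holoclone cells and stayed at or under 6.01% in every other library. The summed level of the 4 receptors was 30.1 to 36.3 TPM as a mean of the Panc1 groups, 57.9 ± 3.95 TPM in parental Panc89, 66.4 ± 37.9 TPM in Panc89 Holoclone and 13.3 ± 3.75 TPM in Panc89 Paraclone cells. The shares were not tested. The shares named between lines, and those of FGFR3 and FGFR4 in Panc89 Paraclone against the other Panc89 cells, did not overlap.

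**Figure D2:**
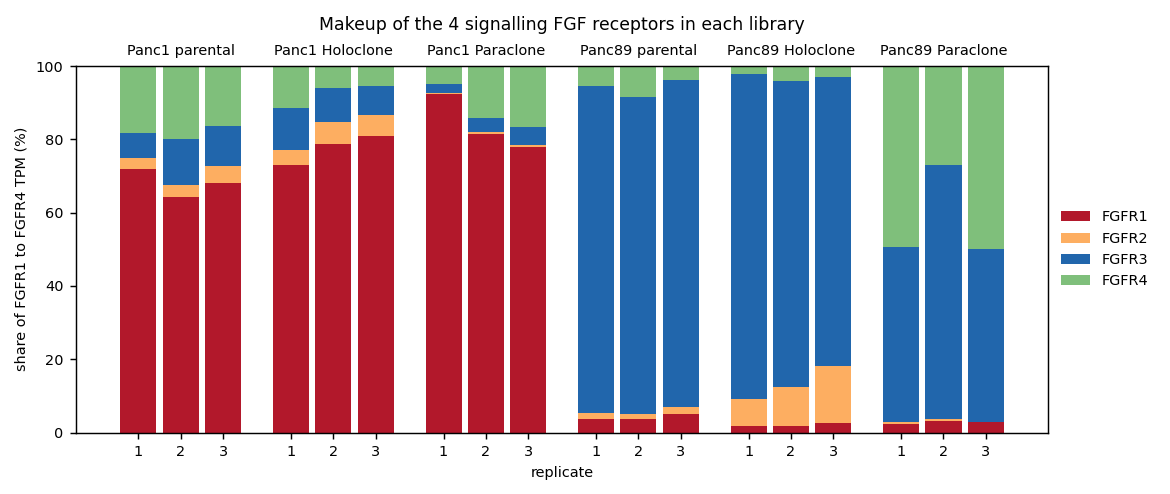
Share of FGFR1, FGFR2, FGFR3 and FGFR4 in their summed TPM (percent, vertical axis) in each of the 18 libraries, 1 bar per replicate. FGFR1 fills most of each Panc1 bar and FGFR3 most of each parental and Holoclone Panc89 bar, while FGFR4 takes 27.1% to 50.0% of the Panc89 Paraclone bars.

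The bases just upstream of these genes range widely in composition. Of them, 3 are shown, each as the 250 bases before the start of the RefSeq gene (GRCh38.p14, read 5′ to 3′ on the gene's strand). FGFR3 and FGFBP1 were taken from the genes of which each Panc89 group was above the matching Panc1 group. FGFR2 was taken as lowest in the Paraclone cells of both lines, which held for FGFR3 too. FGFRL1 also met the first rule and is not shown, with a window of 67.6% G or C and 21 CG pairs. Capitals mark GC boxes (GGGCGG) and CCAAT boxes on either strand, none of which overlap here.
FGFR3, chr4:1793043-1793292, plus strand: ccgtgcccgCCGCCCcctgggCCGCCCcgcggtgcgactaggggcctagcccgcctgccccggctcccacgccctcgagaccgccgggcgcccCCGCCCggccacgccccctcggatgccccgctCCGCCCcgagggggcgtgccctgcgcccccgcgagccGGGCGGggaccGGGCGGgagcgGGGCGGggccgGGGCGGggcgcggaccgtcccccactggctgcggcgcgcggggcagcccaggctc
FGFR2, chr10:121598445-121598694, minus strand: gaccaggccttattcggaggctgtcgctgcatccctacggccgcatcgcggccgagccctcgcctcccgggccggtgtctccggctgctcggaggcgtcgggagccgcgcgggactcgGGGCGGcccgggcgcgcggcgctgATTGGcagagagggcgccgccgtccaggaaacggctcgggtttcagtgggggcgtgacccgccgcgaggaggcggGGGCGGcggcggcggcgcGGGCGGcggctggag
FGFBP1, chr4:15938741-15938990, minus strand: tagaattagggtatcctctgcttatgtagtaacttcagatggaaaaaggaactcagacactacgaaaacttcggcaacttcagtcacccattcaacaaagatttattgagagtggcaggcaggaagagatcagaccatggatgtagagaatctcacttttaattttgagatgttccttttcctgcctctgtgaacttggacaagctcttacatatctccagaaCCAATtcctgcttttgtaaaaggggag

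The FGFR3 window is 86.8% G or C, more than 99.8% of the 27305 windows of this length, with 40 CG pairs and 8 GC boxes. The FGFR2 window is 78.4% G or C with 42 CG pairs, 3 GC boxes and a CCAAT box on the opposite strand. The FGFBP1 window is 40.8% G or C with 2 CG pairs, no GC box and a CCAAT box starting 27 bases before the gene, where the median of all windows is 58.0% G or C. GC boxes occur in 42.3% and CCAAT boxes in 33.0% of all windows. Windows were found for 8 of the 10 genes, and FGFR1 and FGF19 had none. The other motifs searched on both strands were the AP-1 element (TGANTCA, in 6.60% of all windows), the TATA box (TATAAA, in 11.1%), the ATF4 composite element (TGATGNAAT, in 0.916%) and the E-box bound by ZEB factors (CAGGTG, in 17.5%). None of the 8 windows held the AP-1, TATA or ATF4 letters, and the E-box letters were found in those of FGF1 and FGFR4, in the latter overlapping a GC box. A match is a string of letters and not a measured binding site.

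Among the ligands, FGF2 (chromosome 4, 122826682 to 122898236, plus strand), a ligand of most FGF receptors that leaves the cell without a signal peptide, was the only 1 above 1 TPM in every library. It was at 13.7, 5.55 and 13.5 TPM in parental Panc1, at 14.5, 20.8 and 17.8 TPM in Panc1 Holoclone and at 5.82, 5.89 and 8.51 TPM in Panc1 Paraclone cells. In Panc89 it was at 2.90, 3.52 and 3.44 TPM in parental, at 7.50, 7.58 and 13 TPM in Holoclone and at 8.76, 11.6 and 6.48 TPM in Paraclone cells. The Panc1 Holoclone libraries were the highest and the parental Panc89 libraries the lowest of all. Parental Panc1 exceeded parental Panc89 3.32-fold (log2 difference of Panc89 against Panc1 -1.38 ± 0.295, adjusted p = 6.53e-04; -1.77 without parental Panc1 replicate 2). Panc1 Holoclone cells exceeded Panc1 Paraclone cells 2.63-fold (1.28 ± 0.295, adjusted p = 0.00296), and 1.19 without Paraclone replicate 1 (log2, adjusted p = 0.0125). Between the Holoclone lines Panc89 was below Panc1 by 0.88 (adjusted p = 0.0158), which was lost in 6 alternatives, among them without Panc1 Holoclone replicate 2 or without Panc89 Holoclone replicate 1 or 2 (-0.76 each). In Panc89 the clones overlapped (0.05, interval -0.58 to 0.68), but both were above the parental cells from which they were cloned, by 1.24 (adjusted p = 0.00587) and 1.19 (adjusted p = 0.00962). Parental Panc1 replicate 2 was the low library of its group, and without it Panc1 Paraclone cells were below parental Panc1 by 0.93 (adjusted p = 0.0139), against 0.55 (adjusted p = 0.188) with it. The gene NUDT6, which overlaps FGF2 on the opposite strand, was at 4.11 to 13.3 TPM, and how strand was used in the quantification is not given in the sources used here.

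FGF19 (chromosome 11, 69698238 to 69704022, minus strand), an endocrine ligand best known as the gut signal that limits bile acid synthesis in liver, was above 1 TPM in Panc89 alone. The highest of the 9 Panc1 libraries held 0.346 TPM. In Panc89 FGF19 was at 58.8, 62.3 and 43.7 TPM in parental cells, at 25.3, 81.4 and 184 TPM in Holoclone cells and at 46.2, 6.88 and 30.0 TPM in Paraclone cells. The 3 Panc89 groups overlapped, and replicates of a clone differed up to 7.29-fold in Holoclone and 6.71-fold in Paraclone cells, against 1.43-fold in parental cells. The log2 difference between the lines was 5.56 ± 0.594 in parental, 6.16 in Holoclone and 4.43 in Paraclone cells, and 6.90 without Panc89 Holoclone replicate 1 and 5.19 without Panc89 Paraclone replicate 2 in the latter comparisons. Holoclone against Paraclone cells of Panc89 differed by 1.71 ± 0.594 (adjusted p = 0.0348) with overlapping libraries. The difference was 0.95 (adjusted p = 0.16) without Paraclone replicate 2, 1.63 (adjusted p = 0.0913) and 1.04 (adjusted p = 0.182) without Holoclone replicates 2 and 3, and 2.45 (adjusted p = 0.00211) without Holoclone replicate 1, and the call was lost in 9 alternatives. FGFR4, with which FGF19 acts through the co-receptor KLB (beta-klotho), was at 1.15 to 7.24 TPM in the Panc89 libraries, while KLB itself was at most 0.232 TPM in any library. On the same stretch of chromosome 11, CCND1 (43.8 kb away, the cell cycle regulator cyclin D1) had group means of 144 to 290.3 TPM in both lines, whereas ANO1 (281.9 kb away, a chloride channel) was at most 0.841 TPM in Panc1 and 29.4 to 165 TPM in Panc89.

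FGF5 (chromosome 4, 80266639 to 80336680, plus strand), known for ending the growth phase of hair, was at 1.26, 1.74 and 1.60 TPM in parental Panc1 and at 1.70, 0.555 and 0.648 TPM in Panc1 Paraclone cells, but at 0.0173, 0 and 0.0175 TPM in Panc1 Holoclone cells. In Panc89 it was at 0.00911 to 0.0935 TPM in parental, 0.0203 to 0.0977 TPM in Holoclone and 0.172 to 0.654 TPM in Paraclone cells. In Panc1 the Holoclone libraries were below all others, with a log2 difference of -1.32 ± 0.182 against parental and -0.91 against Paraclone cells. Paraclone against parental Panc1 cells differed by -0.41, and by -0.66 without Paraclone replicate 1. The Panc89 Paraclone libraries were above both other Panc89 groups without overlap, which passed the test only with a pseudocount of 0.1 TPM in place of 1 (log2 difference of Holoclone against Paraclone -1.65, adjusted p = 0.00794, against -0.41, adjusted p = 0.0969). Panc89 Paraclone against Panc1 Paraclone cells differed by -0.45, and by -0.20 without Panc1 Paraclone replicate 1. CFAP299, which overlaps FGF5 on the same strand, was at most 0.711 TPM. FGF1 (chromosome 5, 142592178 to 142698070, minus strand), which can bind all 4 signalling receptors, was at most 0.846 TPM, in a parental Panc1 library, and was listed at 0 in all 3 Panc89 Holoclone libraries.

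FGFBP1 (chromosome 4, 15935577 to 15938740, minus strand), is the carrier. In Panc89 it was at 113, 228 and 114.5 TPM in parental, 225, 59.7 and 45.8 TPM in Holoclone and 52.8, 219 and 87.7 TPM in Paraclone cells. Parental Panc1 held 0.0612 to 0.117 TPM and Panc1 Holoclone cells 0.0453 to 0.0821 TPM, whereas Panc1 Paraclone cells were at 1.79, 0.854 and 0.648 TPM. Each Panc89 library was above each Panc1 library, and the Panc1 Paraclone libraries were above the other Panc1 libraries. The log2 difference of Panc89 against Panc1 was 7.04 ± 0.522 in parental, 6.35 in Holoclone and 5.64 in Paraclone cells, and 5.65 without Panc89 Holoclone replicate 1 and 5.08 without Panc89 Paraclone replicate 2 in the latter comparisons. In Panc1, Holoclone against Paraclone cells gave -0.95 ± 0.522 (adjusted p = 0.175), with an error that all 6 groups share. The same difference was -2.80 (adjusted p = 0.00115) with a pseudocount of 0.1 TPM, and passed at adjusted p = 0.0166 when these groups were fitted alone. Within Panc89 replicates differed up to 4.91-fold, no difference was called, and without Holoclone replicate 1 Holoclone cells were below parental cells by 1.44 (log2, adjusted p = 0.0259), against 0.74 (adjusted p = 0.345) with it.

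**Figure D3:**
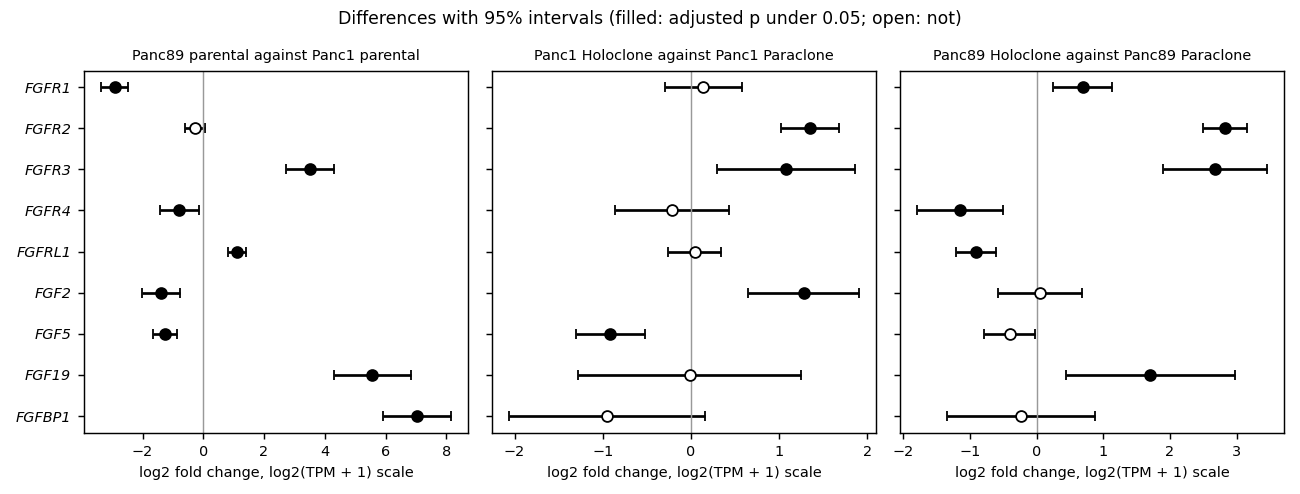
Log2 difference, on the log2(TPM + 1) scale, of the 9 tested genes in 3 comparisons, with 95% intervals from the fit over all groups (limma-trend). Filled points passed an adjusted p of 0.05. Among them are FGF19, FGFBP1 and FGF5 between the parental lines and FGF5 between the Panc1 clones. Nothing is read from the fill of these points, because the genes passed the filter through groups in which they were high. FGFBP1 and FGF19 lie farthest right in the comparison of the parental lines, and FGFR2 is above 0 in Holoclone against Paraclone cells of both lines.

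Whether Holoclone and Paraclone cells differed in the same way in both lines was tested as the difference between the Panc89 and the Panc1 contrast. It was called for 4 of the 9 genes, where 35.1% of all tested genes were called: the Holoclone excess of FGFR2 and FGFR3 was larger in Panc89, that of FGF2 was larger in Panc1, and FGFRL1 was below Paraclone level in Panc89 with a difference near 0 in Panc1. The calls of FGFR3 and FGF2 were lost in 7 and 12 alternatives, and 2 genes were called with no filter. For FGFR1 this difference between the lines was 0.55 (adjusted p = 0.163), and 0.75 and 0.77 (adjusted p = 0.0336 and 0.0318) with the upper quartile and median-of-ratios scaling. It was 1.33 (adjusted p = 0.0229) with a pseudocount of 0.1 TPM, with which FGFBP1 also passed (2.56, adjusted p = 0.0219). FGF19 passed without Panc89 Holoclone replicate 1 (2.47, adjusted p = 0.013) or Paraclone replicate 1 (2.25, adjusted p = 0.0483), at 1.72 (adjusted p = 0.128) with all libraries. FGFR2 alone among the 9 genes was called in the same direction in both lines in all alternatives.

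The clones did not always bracket the culture from which they were cloned. In Panc89, FGFR1 was lower and FGF2 higher in both clones than in parental cells, and in Panc1 FGFR4 was lower in both, as given above. Against their parental cells, Panc1 Holoclone cells had 2 FGF genes called (FGFR4 and FGF5, both lower) where 10.9% of all tested genes were called and 5.06% were lower. Nothing is read from this count, because FGF5 passed the filter through parental Panc1 and 1 Panc1 Paraclone library, and the FGFR4 call was lost in 7 alternatives. Panc1 Paraclone cells had 3 genes called against parental Panc1 (FGFR2, FGFR3 and FGFR4, all lower), where 28.6% were called and 21.3% were lower. With either scaling FGFR4 was no longer called there and FGFRL1 was called higher (0.42, adjusted p = 0.0475, and 0.46, adjusted p = 0.0354), which leaves 2 lower and 1 higher. With these scalings 3801 and 3778 of the 16093 tested genes were called, 47.4% and 53.0% of them higher. Panc89 Holoclone cells had 3 called (FGFR1 lower, FGFR2 and FGF2 higher; 24.7% of all genes, 8.61% lower and 16.1% higher), and Panc89 Paraclone cells 5 (FGFR1, FGFR2 and FGFR3 lower, FGFRL1 and FGF2 higher; 19.4% of all genes, 10% lower and 9.37% higher).

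The spread between replicates of the Panc89 clones followed an order that several of these genes shared. The summed level of 6 target genes of ATF4 (ASNS, TRIB3, CHAC1, DDIT3, PSAT1 and SESN2, a list chosen after values were seen), a factor that is active when amino acids are short or proteins misfold, was 1314, 2154 and 2501 TPM in Holoclone replicates 1, 2 and 3, and 985, 400.4 and 829.6 TPM in Paraclone replicates 1, 2 and 3. FGF19 had the same order in both clones, and so did FGF21, a related endocrine ligand, in Holoclone cells (1.20, 5.4 and 10.6 TPM). FGFBP1, FGFR1 and FGFR3 had the reverse order in both clones. FGFR2, FGFR4, FGFRL1, FGF2 and FGF5 held neither order in both clones. Each order rests on 3 libraries, and how many of all genes share it was not counted. In parental Panc89 the sum ranged from 1075 to 1155 TPM only, and FGF19 was highest where the sum was lowest. In Panc1 the sum was 1439, 647 and 1485 TPM in parental cells, and FGF2 was lowest in the library with the lowest sum. The part of these genes in the results was not tested.

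**Figure D4:**
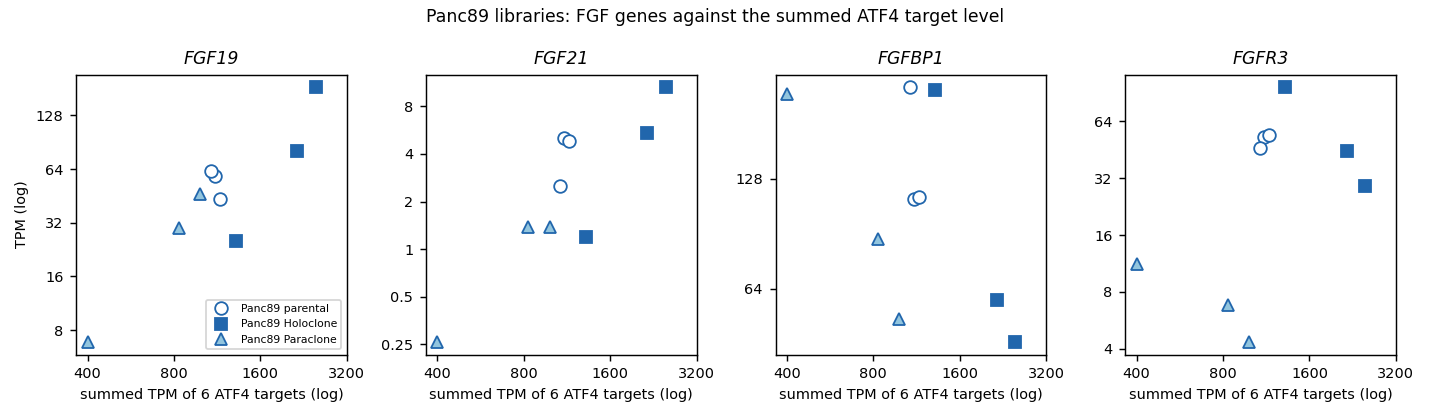
TPM of FGF19, FGF21, FGFBP1 and FGFR3 (vertical, log axis) against the summed TPM of 6 ATF4 target genes (horizontal, log axis) in the 9 Panc89 libraries. Within Holoclone (squares) and Paraclone (triangles) libraries FGF19 is higher, and FGFBP1 and FGFR3 lower, where the sum is higher.

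Genes whose levels resembled those of a member most closely were listed by Pearson correlation of log2(TPM + 1), as a description. Over the 9 Panc89 libraries FGFR2 was most like ESRP2 (0.997), PYGO1 (0.996) and LINC01504 (0.995), and 960 genes exceeded 0.9. These 9 libraries fall into 3 groups. FGFR3 was most like PARD6G (0.996), FGFRL1 most like LUCAT1 (0.985) and FGF19 most like FAM102A (0.965), ADM2 (0.962) and P2RX4 (0.953), with 52 genes over 0.9. Over the 9 Panc1 libraries FGF2 was most like ZNF641 (0.994), FGF5 most like HIVEP3 (0.990) and FGFBP1 most like LINC00973 (0.994). Over all 18 libraries FGFR1 was most like TBX1 (0.989), RTL8B (0.987) and HS2ST1 (0.986), with 1381 genes over 0.9. These 18 libraries fall into 2 lines. FGFR4 had no gene over 0.9 across the 18 libraries, the closest being KLC4 at 0.789.

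The other genes of the pathway place these levels in context. They were tested with the same filter, so that a gene near 0 in 1 line can have passed it through the other. Nothing is read from the p of such a gene between the lines. Of 14 further secreted ligands, FGF21 was the only 1 to pass the filter, at 4.11 ± 1.41 TPM in parental Panc89 and 0.567 ± 0.419 TPM in parental Panc1. This log2 difference of 1.70 is given without a p, because the mean in parental Panc1 was under 1 TPM. FGF7, a ligand of the epithelial form of FGFR2, did not exceed 0.443 TPM. Of the 4 related factors that stay inside the cell, FGF12 was higher in Panc89 in all 3 comparisons of the lines (2.29 in parental cells, adjusted p = 7.86e-08), and FGF11 was 22.7 ± 2.03 TPM in parental Panc1 but 6.14 ± 0.310 and 2.17 ± 0.441 TPM in its Holoclone and Paraclone cells (lower by 1.73, adjusted p = 5.66e-05, and by 2.91, adjusted p = 5.54e-08). ESRP1 and ESRP2, the epithelial splicing factors that select the epithelial form of FGFR2, were at 122 ± 13.2 and 30.2 ± 1.78 TPM in parental Panc89 and at 1.5 ± 0.783 and 12.0 ± 3.60 TPM in parental Panc1. Like FGFR2, ESRP2 was low in Panc1 Paraclone cells (0.754 ± 0.234 TPM against 9.48 ± 1.73 TPM in Holoclone cells, log2 2.57, adjusted p = 1.28e-08), and it was above Paraclone level in Panc89 Holoclone cells too (0.81, adjusted p = 0.0014). The splice forms themselves cannot be read from values summed per gene.

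Of 18 tested genes for heparan sulfate synthesis and its carrier proteins, 7 were higher and 8 lower in parental Panc89 than in parental Panc1 (27.5% and 38.5% of all tested genes), with a median log2 difference of 0.13 against -0.18 over all tested genes. The sulfotransferase HS6ST2 was at 16.4 ± 1.1 TPM in parental Panc89 and 0.0823 ± 0.0302 TPM in parental Panc1 (log2 4.01, without a p for the same reason as FGF21). The sulfatase SULF2, which removes sulfate groups that FGFs bind, was at 31.8 ± 7.86 TPM in parental Panc89 but 1.06 ± 0.542 TPM in its Holoclone cells (-4.00, adjusted p = 1.14e-08). Between Holoclone and Paraclone cells 9 were higher and 2 lower in Panc89, where 22.4% of all tested genes were higher and 13.3% lower, and 3 were higher and 5 lower in Panc1, where 27.4% were higher and 9.97% lower. With either scaling these counts were 7 and 2 in Panc89 and 2 and 9 in Panc1. With upper quartile and median-of-ratios scaling, 5846 and 5907 of the 16093 tested genes were called in Panc89, 52.5% and 49.3% of them higher. In Panc1 5154 and 5108 were called, 51.3% and 47.7% of them higher. Among 8 tested partners of the receptors, the adhesion proteins FLRT1 and FLRT2 were above Paraclone level in Panc89 Holoclone cells by 3.10 (adjusted p = 1.96e-05) and 2.70 (adjusted p = 9.02e-06), whereas L1CAM was below it by 3.88 (adjusted p = 2.3e-08). GALNT3, which protects FGF23 by adding sugars, was at 34.2 ± 3.96 TPM in parental Panc89 and 0.0424 ± 0.0466 TPM in parental Panc1.

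Downstream, 3 of 10 adaptors and signal transducers were higher and 6 lower in parental Panc89 than in parental Panc1, against 27.5% and 38.5% of all tested genes. PLCG1, a phospholipase that FGF receptors activate, was at 10.9 ± 2.71 against 82.0 ± 20.5 TPM, CBL, which marks receptors for degradation, at 5.82 ± 0.380 against 40.7 ± 5.83 TPM, and FRS2, the docking protein of the receptors, was higher by 1.12 (log2, adjusted p = 1.37e-07). In Panc1, 7 of the 10 were above Paraclone level in Holoclone cells and SHC1 was below it (-1.12, adjusted p = 2.17e-04), against 27.4% of all tested genes above and 9.97% below, and in Panc89 GAB1 alone was called, lower by 0.55 (adjusted p = 0.0306), a call lost in 6 alternatives. With either scaling 6 were above and 1 below in Panc1, and none above and 2 below in Panc89. Of the 16093 tested genes, 5154 and 5108 were then called in Panc1 (upper quartile and median-of-ratios scaling), 51.3% and 47.7% of them above. In Panc89 5846 and 5907 were called, 52.5% and 49.3% of them above. Of 15 targets and feedback inhibitors of the pathway, 7 were higher and 7 lower in parental Panc89, against the same 27.5% and 38.5%. In Panc1, 4 were above and 5 below Paraclone level in Holoclone cells, against the same 27.4% and 9.97%. With either scaling 1 was above and 5 below, against the numbers of all tested genes just given for Panc1. DUSP4, a phosphatase that inactivates MAP kinases, was at 178 ± 15.1 TPM in parental Panc89 and 0.0283 ± 0.0127 TPM in parental Panc1, and it was at 4.93 ± 0.343 TPM in Panc1 Paraclone cells, above parental Panc1 by 2.53 (log2, adjusted p = 2.19e-09). ETV5, a transcription factor induced by FGF signalling, was above Paraclone level in Holoclone cells of Panc1 (1.03, adjusted p = 1.68e-04) and of Panc89 (1.1, adjusted p = 9.98e-05), and the feedback inhibitor SPRY2 was below it in both (-1.43, adjusted p = 7.24e-05, and -0.98, adjusted p = 0.00188). SPRY1 was above Paraclone level in Panc89 Holoclone cells by 1.48 (adjusted p = 1.05e-04). Of the 15 targets, 3 were called above and 1 below Paraclone level in Panc89 Holoclone cells, against 22.4% and 13.3% of all tested genes. The other 11 were not called there.

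**Figure D5:**
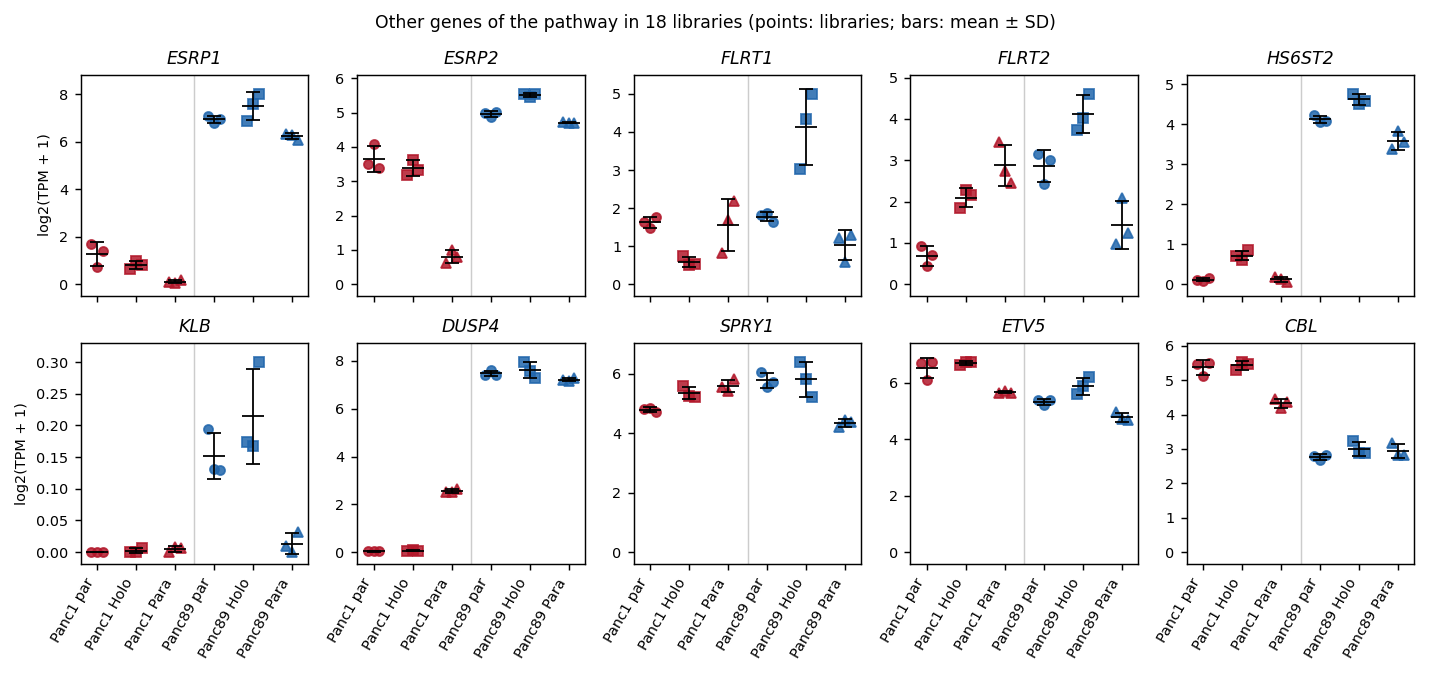
Level of 10 other genes of the pathway, in log2(TPM + 1), in every library, with the mean ± SD of 3 replicates (red, Panc1; blue, Panc89; circles, parental; squares, Holoclone; triangles, Paraclone). ESRP1, HS6ST2 and DUSP4 separate the lines, ESRP2 is lowest in Panc1 Paraclone cells, and the KLB axis ends at a level below 1 TPM.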

How the data were processed

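RNA from 3 passages of each of the 6 cell populations was sequenced with a stranded mRNA kit as paired ends. The authors quantified the reads with kallisto 0.46.1 on Ensembl transcripts (GRCh38), summarised them per gene with tximport as scaled TPM and deposited log2(TPM + 1) per gene symbol. TPM keep no read depth, so depth is unknown and no counting interval or count test could be given. From the deposited log2 values, genes reaching 1 TPM in 3 or more libraries were fitted by group means over all 18 libraries with limma-trend (limma 3.58.1, R 4.3.3; pseudocount 1, two-sided, Benjamini-Hochberg, threshold 0.05), after the step was tested on simulated data. There were 10 comparisons. Fold changes on this scale understate those of low genes. Ratios and shares were computed on TPM. Positions are from GENCODE 44, windows upstream of genes from RefSeq (GRCh38.p14).

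The 10 genes and the lists of pathway and marker genes were chosen with earlier results of these data known, and the ATF4 target list after values were seen. Named were all 10 genes, up to 4 called genes with the largest change per list and comparison, and the 3 genes most like each of the 10. CCND1, ANO1, NUDT6, CFAP299, KLB and FGF7 were also named, after their values were seen. The alternatives were a pseudocount of 0.1 TPM, no filter, a filter at 5 TPM (which leaves FGF5 untested), upper quartile and median-of-ratios scaling, a variance prior without a trend, only the groups compared, a replicate block within or over the lines, and leaving out each library.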

Additional observations from a re-analysis of the deposited data

Results flagged for a closer look

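The difference between Holoclone and Paraclone cells was tested for a difference between the lines (limma-trend, adjusted over all tested genes), and 4 genes passed. For FGFR2 it was larger in Panc89 by 1.48 on the log2(TPM + 1) scale, from 1.35 in Panc1 to 2.83 in Panc89 (adjusted p = 9.4e-05), and this call held in each alternative run. For FGFRL1 it was -0.95, from 0.04 in Panc1 to -0.91 in Panc89 (adjusted p = 0.00158), which held as well. For FGFR3 it was 1.60, from 1.07 to 2.67 (adjusted p = 0.0256), and the call was lost in 7 alternatives, with a value of 1.13 (adjusted p = 0.0511) without Panc89 Holoclone replicate 1. For FGF2 it was -1.23, from 1.28 to 0.05 (adjusted p = 0.032), and the call was lost in 12 alternatives, at values of -1.04 to -1.23. Groups of 3 libraries are too small for the test of single outlying libraries.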

How the results depend on the processing

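Of 740 refitted differences of the FGF genes that were called, 645 remained called and 95 were lost, and none turned direction. The 740 include those of FGF19 and FGFBP1 between the lines and of FGF5 against the groups through which it passed the filter. These were bound to hold in most refits, so nothing is read from the share that remained called. As single libraries were left out, the mean share of FGFR1 in parental Panc1 ranged from 66.1% to 69.9%. In Panc89 Paraclone cells that of FGFR3 ranged from 47.4% to 58.5% and that of FGFR4 from 38.3% to 49.7%. Leaving out 1 of 3 libraries cannot move a mean by as much as their SD, so the SD is no yardstick for these shifts. With only the groups compared in the fit, all genes called between Holoclone and Paraclone cells of Panc89 fell from 5746 to 3377. FGF genes called in Panc1 Holoclone against parental cells went from 2 to 1 with no filter, with the filter at 5 TPM, with only the groups compared and with a replicate block within each line. In Panc1 Paraclone against parental cells they went from 3 to 1 with no filter and with that block, and in the difference between the lines from 4 to 2 with no filter. As single libraries were left out, these 3 counts ranged from 1 to 2, 1 to 3 and 2 to 4, and all genes called in Panc1 Holoclone against parental cells ranged from 1061 to 1571, against 1759 with all libraries. The cause was not tested. With both scalings the genes called higher went from 41.6% to 48.3% and 51.8% of those called between the parental lines, from 62.8% to 52.5% and 49.3% in Panc89 Holoclone against Paraclone cells, from 25.6% to 47.4% and 53.0% in Panc1 Paraclone against parental cells and from 65.2% to 51.3% and 51.0% in Panc89 Holoclone against parental cells.

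Replicate numbers did not pair the libraries: deviations of libraries with the same number correlated at -0.318 to 0.19, and a library was most like the one of its own number in 11 of 36 comparisons. With the replicate block within each line, the FGF genes called went from 8 to 7, 7 to 6, 6 to 5, 4 to 3, 6 to 5, 2 to 1, 3 to 1, 3 to 2, 5 to 5 and 4 to 3 over the 10 comparisons, and with the replicate block over both lines only Panc1 Paraclone (3 to 2) and Panc89 Holoclone cells (3 to 2) against parental cells changed.

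Read depth is unknown, so no limit can be set for FGF1, FGF5 and the other genes listed near 0. Each clone is 1 clone, and 3 passages per group limit the precision. Values per gene show neither splice forms nor protein.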

Other observations

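Of 7 tested genes around FGF19 on chromosome 11, 1 was higher (ANO1) and 1 lower (MYEOV) in parental Panc89 than in parental Panc1, against 27.5% and 38.5% of all tested genes. With either scaling 3 were higher and 1 lower. With upper quartile and median-of-ratios scaling, 10559 and 10516 of the 16093 tested genes were called there, 48.3% and 51.8% of them higher. In Holoclone cells 3 were higher and 2 lower in Panc89 (4 or 5 higher and 2 lower with the scalings), and in Paraclone cells 6 were higher and none lower, also with either scaling. Of all tested genes, 65.8% were called between the Holoclone lines and 60.7% between the Paraclone lines. Of those called, 44.6% and 49.8% were higher in Panc89, and nothing is read from the counts of these few neighbours. In Panc89 Holoclone against Paraclone cells 2 were lower and 2 higher, against 13.3% and 22.4% of all tested genes, and 2 and 1 with either scaling. With these scalings 5846 and 5907 of the 16093 tested genes were called there, 52.5% and 49.3% of them higher. MYEOV (356.6 kb from FGF19) was at 17.2 ± 1.79 TPM in Holoclone and 87.4 ± 13.6 TPM in Paraclone cells (SD, n = 3; log2 -2.28, adjusted p = 3.01e-07 by limma-trend), and ANO1 was lower too (-1.73, adjusted p = 9.12e-05), whereas LTO1 (22.8 kb away) and CCND1 were higher by 0.63 (adjusted p = 0.00274; 0.0764 with only these groups in the fit) and 0.55 (adjusted p = 0.023). The CCND1 call was lost in 6 alternatives, with both scalings (0.44 and 0.41, adjusted p = 0.0503 and 0.0652) and without Holoclone replicate 1 or Paraclone replicate 2 or 3 (0.47, 0.50 and 0.53) among them. In Panc1 MYEOV was at 49.8 ± 7.32 TPM in Holoclone and 45.7 ± 12.9 TPM in Paraclone cells, and the difference between the lines was called (-2.42, adjusted p = 6.86e-06).

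Of the proteoglycans that carry heparan sulfate, SDC2, HSPG2 and GPC6 had the largest differences between the clones of Panc1. SDC1, SDC3 and GPC1 were not called there (log2 -0.01, -0.29 and -0.32), and SDC4 was lower in Holoclone cells by 0.66 (adjusted p = 0.00154). SDC2 (syndecan 2) was at 4.36 ± 0.645 TPM in Holoclone and 43.2 ± 8.20 TPM in Paraclone cells, and HSPG2 (perlecan) at 13.9 ± 2.94 and 116 ± 4.51 TPM. GPC6 (glypican 6) had the opposite order, at 6.04 ± 0.477 and 0.0360 ± 0.0184 TPM. In Panc89 the log2 differences of Holoclone against Paraclone cells were 0.85 for SDC2, 0.36 for HSPG2 and -0.17 for GPC6, and all 3 differed between the lines by test (adjusted p = 1.38e-06, 2.39e-07 and 8.91e-07). FGFBP3, another carrier of FGFs, was called higher in Panc89 Holoclone than in Paraclone cells (0.95, adjusted p = 0.00121; 0.0569 with only these groups in the fit), at 1.73 ± 0.710 against 0.421 ± 0.409 TPM.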
